A study of Mus musculus with 35 samples.

Results

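The 9 genes Nphs1, Fat1, Cd2ap, Magi2, Crb2, Podxl, Ptpro, Trpc6 and Plce1 encode proteins of the slit diaphragm and of the membrane of podocyte foot processes. They were chosen by name, and each symbol matched 1 Ensembl gene among the 33292 genes of the table. RNA was sequenced from podocytes of 35 mice, each mouse giving 1 library, and the values are TPM (reads per gene corrected for transcript length and scaled to the same total in every library). Every mouse carried a floxed Lmx1b allele (lox), an rtTA transgene under a promoter active in podocytes, a tetO::Cre transgene and the mT/mG reporter, and received 2 mg/ml doxycycline in the drinking water for 7 days from an age of 7 to 10 weeks. Cre then removes the floxed allele in podocytes, so that Lmx1b+/lox mice, titled WT and called control here, kept a normal allele, while Lmx1bH77L/lox and Lmx1bC118F/lox mice kept only a mutant allele, altered in the first or second LIM domain of this transcription factor. Mice of each genotype were injected every other day with 0.3 µg bortezomib per g body weight, a proteasome inhibitor, or with its solvent DMSO. There were 6 mice in each of the 6 groups of genotype and treatment except C118F with bortezomib, which had 5.

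Podocytes wrap the glomerular capillaries with interdigitating foot processes, and the slit diaphragm is the cell junction that bridges the gaps between them and helps to hold back plasma protein. Nephrin and the giant cadherin FAT1 reach into the slit, adaptor proteins tie them to the actin cytoskeleton, polarity proteins place the junction, and the sialylated podocalyxin covers the free surface of the foot processes. Variants of many of these genes cause inherited proteinuria in humans.

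Magi2, Crb2, Podxl and Ptpro fell in both knock-in lines, with DMSO and with bortezomib, to between 25.9% and 57.7% of the median of the matching controls. Nphs1, Fat1 and Plce1 did not pass the test in any of these comparisons, and Cd2ap passed, as a small rise, in H77L with DMSO. Trpc6 was too low for the main test. No member passed the test of bortezomib against DMSO in any genotype.

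The labelled cell type was checked first. In control mice with DMSO, all 12 podocyte markers had a median above 1 TPM, and their sum was between 22877 and 39567 TPM. The sum was lower in the knock-in mice, between 6172 and 11245 TPM in H77L and between 6758 and 13509 TPM in C118F with DMSO, and 8 of the 12 markers fell in each comparison of a mutant genotype and its controls. Cdkn1c, a cell cycle inhibitor of mature podocytes, fell from a median of 4970 TPM to 240 in H77L and 222 in C118F with DMSO. Other podocyte markers rose, 2 in H77L and 1 in C118F with DMSO and 1 and 2 with bortezomib, among them Ptgds, from 106 to 329 and 441 TPM with DMSO. The sort itself depended on the activity of the promoter that drives rtTA. The 8 endothelial markers together stayed at a median of 15.3 to 26.2 TPM in all groups. Of the 6 mesangial markers, Pdgfrb rose from a median of 13.3 TPM in controls to 196 in H77L and 125 in C118F with DMSO, while Itga8, Gata3 and Pdgfra had medians below 1 TPM in every group. The 6 together summed to a median of 35.2 TPM in controls, 261 in H77L and 266 in C118F with DMSO. With bortezomib the sums were 21.8, 175 and 168 TPM. Of the 6 parietal cell markers, Cldn1, Pax8 and Cd44 rose in both lines with DMSO, while Krt19 had a median of 0 in 5 of the 6 groups and Krt8 went from 2.46 to 0.54 and 0.19 TPM. Of the leukocyte markers, Csf1r rose from 3.67 to 10.8 and 8.33 TPM with DMSO, and the mesangial list's Acta2 had medians of 3.79, 15.3 and 41.6 TPM with DMSO and did not pass there in either line. The 8 tubule markers summed to a median of 40.6 TPM in controls, 10.9 in H77L and 9.48 in C118F with DMSO. C118F DMSO replicate 1 stood apart, with 2660 TPM of mesangial and 167 TPM of endothelial markers, and it was the lowest of its group for 6 of 8 members. Control DMSO replicates 1 and 2 held 378 TPM of leukocyte and 1020 TPM of tubule markers. Sequencing depth was within 0.73 to 1.26 times that of the median mouse in 34 libraries, and C118F bortezomib replicate 2 had 0.28 times. The part of cell composition in the changes below was not tested, and in bulk samples fewer cells of a type and less RNA per cell cannot be told apart. Lmx1b itself had 69.6 ± 14.7 TPM in controls, 120 ± 19.7 in H77L and 101 ± 49.8 in C118F with DMSO (mean ± SD, n = 6 each), but these gene-level values do not check recombination, which removes only part of the gene.

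The sequences just upstream of the 4 genes that fell in both lines are shown because these genes moved together. They are the 250 bases before the start of the main GENCODE transcript in GRCm39, written 5′ to 3′ on the strand of the gene. Capitals mark TAAT, the core of many homeodomain sites, on either strand.
Magi2, chr5:19431491-19431740, plus strand: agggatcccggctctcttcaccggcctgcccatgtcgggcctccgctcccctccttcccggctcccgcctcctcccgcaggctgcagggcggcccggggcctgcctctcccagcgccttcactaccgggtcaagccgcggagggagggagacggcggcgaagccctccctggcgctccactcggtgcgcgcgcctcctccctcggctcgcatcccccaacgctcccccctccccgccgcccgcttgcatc
Crb2, chr2:37666011-37666260, plus strand: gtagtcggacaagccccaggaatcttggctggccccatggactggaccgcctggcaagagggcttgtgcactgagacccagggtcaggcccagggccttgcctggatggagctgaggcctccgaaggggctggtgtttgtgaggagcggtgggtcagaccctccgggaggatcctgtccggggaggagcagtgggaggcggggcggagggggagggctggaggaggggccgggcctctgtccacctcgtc
Podxl, chr6:31540925-31541174, minus strand: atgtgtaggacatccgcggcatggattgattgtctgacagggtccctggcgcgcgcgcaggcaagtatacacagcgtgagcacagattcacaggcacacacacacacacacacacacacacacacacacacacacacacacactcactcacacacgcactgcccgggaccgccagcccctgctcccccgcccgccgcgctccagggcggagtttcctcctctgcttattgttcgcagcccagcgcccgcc
Ptpro, chr6:137229026-137229275, plus strand: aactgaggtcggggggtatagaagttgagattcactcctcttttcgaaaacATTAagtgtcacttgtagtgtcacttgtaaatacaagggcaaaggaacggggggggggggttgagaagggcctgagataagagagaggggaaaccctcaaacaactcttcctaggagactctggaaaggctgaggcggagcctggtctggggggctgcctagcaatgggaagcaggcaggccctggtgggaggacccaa
Exons of 4921504A21Rik, a long noncoding RNA on the opposite strand, covered all 250 bases of the Magi2 window, and no annotated gene overlapped the windows of Crb2, Podxl and Ptpro. TAAT was found once, in Ptpro, 199 bases before the start and as its complement ATTA. Of all 9 members, Ptpro and Trpc6 held TAAT, or 2 of 9, against 55.2% of 21770 promoters of the same length. The window of Trpc6 held 217 exonic bases of Trpc6 itself, and that of Cd2ap 27 of its own. Exons of Gm9908, a long noncoding RNA on the opposite strand, covered all 250 bases of the Fat1 window. TAATTA, the longer palindrome that includes TAAT, was in 0 of 9, against 5.18% of all. CANNTG, the E-box, searched on both strands, was in 5 of 9, against 64.8% of all. The share of G and C ran from 44.8% in Trpc6 to 75.6% in Magi2, where the median of all promoters was 53.2%. These counts describe letters in short windows and say nothing about binding.

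In control podocytes with DMSO, Podxl had by far the highest level of the members, with a median of 7322 TPM. It was followed by Ptpro at 885 TPM, Crb2 at 310 TPM, Nphs1 at 210 TPM, Magi2 at 163 TPM, Plce1 at 82.8 TPM, Cd2ap at 74.4 TPM and Fat1 at 39.7 TPM. TPM is corrected for length, but the length used for each gene is not given. All annotated exons of a gene, merged, ran from 5512 bases for Podxl to 17338 for Plce1. The order of the members depends on the lengths used. The ranges over mice overlapped between Crb2 and Nphs1, between Nphs1 and Magi2 and between Plce1 and Cd2ap, and these neighbours are not separated beyond the spread, although Nphs1 was above Magi2 within each of the 6 mice. The plot of TPM by mouse shows all groups.

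**Figure D1:**
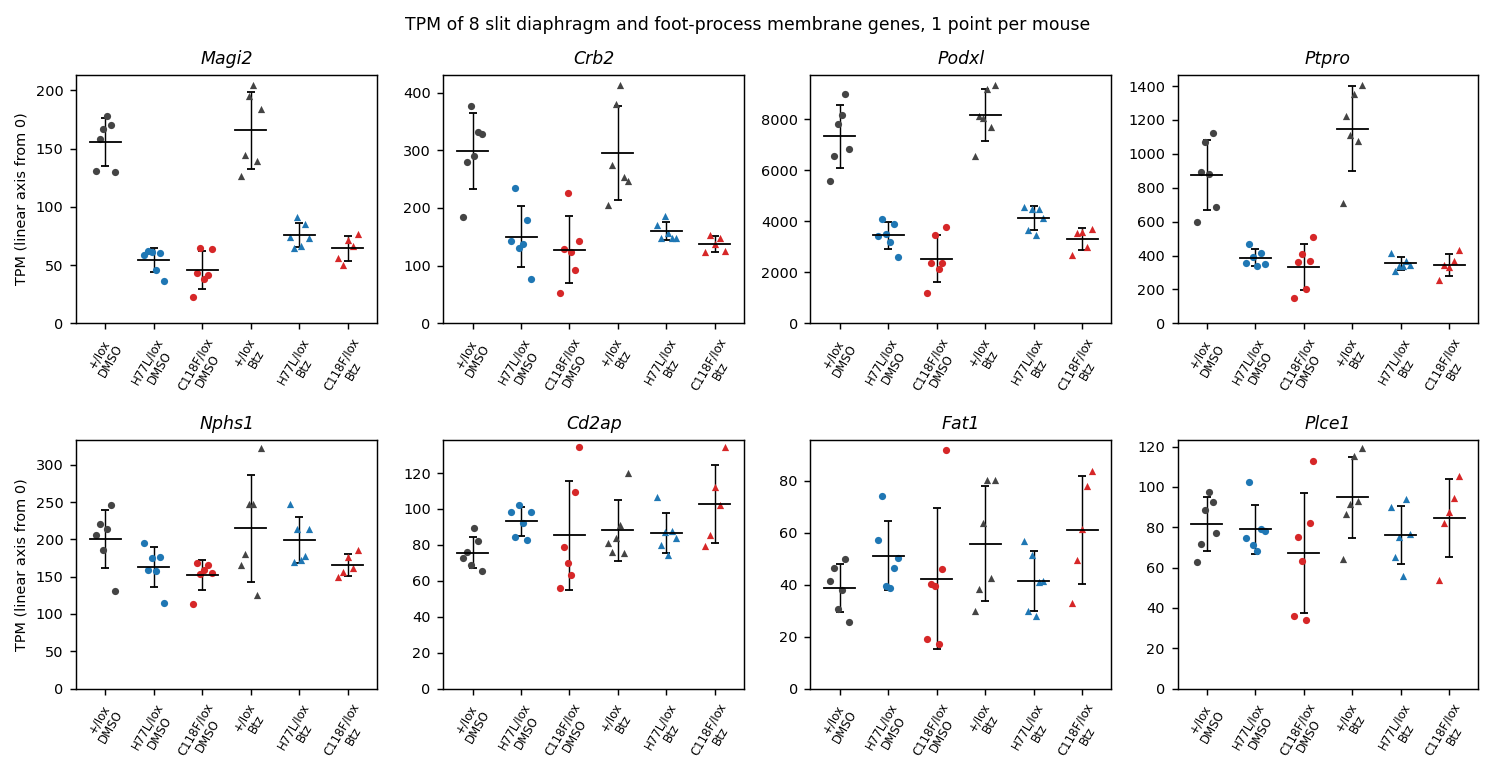
TPM of 8 members (vertical axes, linear from 0) in each mouse (points), by genotype and treatment (circles DMSO, triangles bortezomib, abbreviated Btz), with the group mean and SD as lines. Magi2, Podxl and Ptpro of both knock-in lines lie below every matching control mouse with either treatment, whereas Nphs1, Cd2ap, Fat1 and Plce1 overlap with the controls.

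Each knock-in line was compared with the controls to see which members differ in podocytes left with a mutant allele alone, with limma on log2(TPM + 1), keeping the genes that exceeded 1 TPM in all mice of one or both groups. Fold changes are on that scale, a call needs an adjusted p under 0.05 (Benjamini-Hochberg over all genes tested), and the comparisons of both lines share the same control mice. With DMSO, 8 of the 9 members were tested. In H77L 4 fell and 1 rose, and in C118F 4 fell and none rose. Among all genes tested, 22.4% fell and 22.4% rose in H77L, and 16.6% fell and 13.7% rose in C118F. With bortezomib 4 of 8 fell and none rose in each line, while of all genes 11% fell and 12.5% rose in H77L and 12.4% fell and 15.1% rose in C118F. The same genes Magi2, Crb2, Podxl and Ptpro made up the 4 in each comparison. The median log2 fold change of the 8 members was -0.66 in H77L and -0.85 in C118F with DMSO, and that of all genes -0.01 and -0.06. With bortezomib the medians of the members were -0.61 and -0.68, beside -0.01 and 0.00 for all genes. No member reached stricter cutoffs (adjusted p below 0.001 with a log2 fold change beyond 2 in either direction) in any of the 4 comparisons. Of all genes, 2.17% reached them in H77L and 2.27% in C118F with DMSO, and 1.2% and 1.93% with bortezomib.

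**Figure D2:**
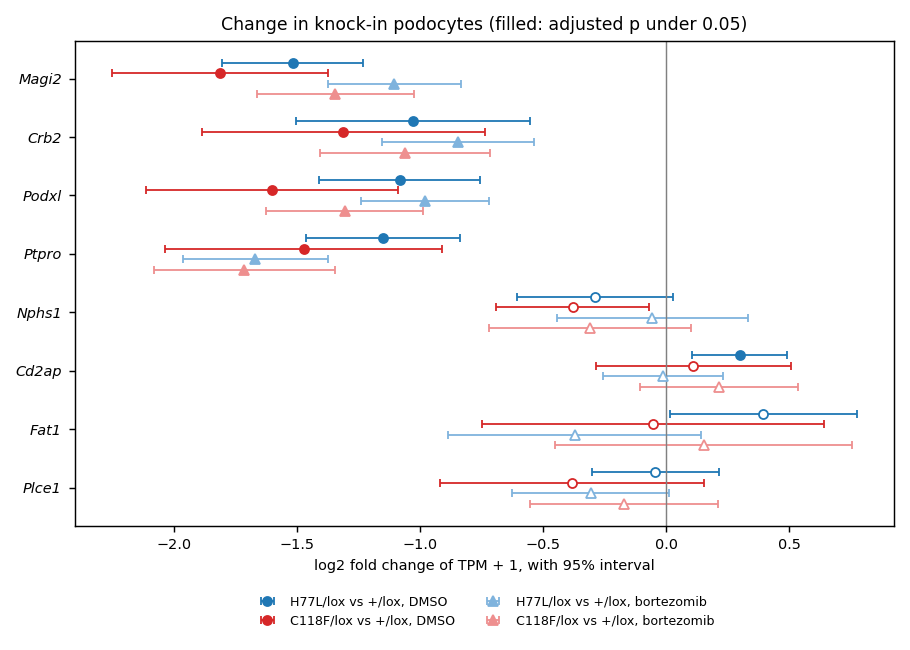
Log2 fold change of TPM + 1 (horizontal axis) with its 95% interval for 8 members in each knock-in line against the controls (colours), with DMSO (circles) or bortezomib (triangles); filled symbols passed an adjusted p under 0.05. Magi2, Crb2, Podxl and Ptpro lie between -0.85 and -1.82 in all 4 comparisons, and the other members between -0.38 and 0.40.

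Magi2 encodes a scaffold protein that binds nephrin and links the slit diaphragm to the cytoskeleton, and it had the largest fall of the members with DMSO. Control mice with DMSO had 130 to 178 TPM with a median of 163. H77L mice had 36.7 to 62.1 TPM with a median of 59.6, and C118F mice 23.0 to 64.8 TPM with a median of 42.2. All mice of both lines lay below every control mouse, as was so for 10.1% of all genes in H77L and 7.18% in C118F. The log2 fold change was -1.52 ± 0.13 (SE; adjusted p = 8.49e-07, limma) in H77L and -1.82 ± 0.21 (adjusted p = 1.29e-05) in C118F. With bortezomib, controls had 126 to 204 TPM with a median of 164, and H77L 65.0 to 91.0 TPM with a median of 73.4. The 5 C118F mice had 50.3, 56.4, 66.2, 71.3 and 77.05 TPM. The groups again did not overlap, and the log2 fold changes were -1.10 ± 0.13 in H77L and -1.34 ± 0.15 in C118F (adjusted p = 9.01e-06 and 1.24e-05). For the 4 genes together, no overlap with bortezomib compares with 5.3% of all genes in H77L and 6.74% in C118F that lay wholly below the controls.

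Magi2 shares 1000 exonic bases with 4921504A21Rik, and the sources used here do not say whether reads were counted by strand. That RNA had a median of 81.6 TPM in controls, 30.0 in H77L and 24.7 in C118F with DMSO, so it fell with Magi2 (log2 fold change -1.55 and -1.65, adjusted p = 2.08e-05 and 5.20e-06, limma). Reads of the overlapping stretch cannot be told apart between both genes. Magi2 itself lies on chromosome 5 (19431741 to 20909790, GRCm39), with 11754 exonic bases.

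Crb2 encodes a Crumbs protein, which sets apical membrane identity and lies at the slit diaphragm. Its reads could be recovered as whole numbers, between 1509 and 16233 per mouse, so that counting error adds little to its spread. Under DMSO, controls had 185 to 377 TPM with a median of 310. H77L mice had 76.9 to 234 TPM (median 140) and C118F mice 53.0 to 225 TPM (median 126). In each line 5 of 6 mice lay below all controls and 1 overlapped, and the coefficient of variation over mice was the largest of the 4 genes in both lines. The log2 fold change was -1.03 ± 0.22 (adjusted p = 0.00198, limma) in H77L and -1.31 ± 0.27 (adjusted p = 0.00218) in C118F. In the H77L comparison the call was lost when the mouse number entered the fit as a covariate (-0.51, adjusted p = 0.0900). With bortezomib controls had 205 to 413 TPM (median 264), H77L mice 147 to 187 TPM (median 152) and the C118F mice 123, 126, 138, 147 and 154 TPM. These groups did not overlap, with log2 fold changes of -0.85 ± 0.15 and -1.06 ± 0.16 (adjusted p = 0.000427 and 0.000212). Crb2 shares 151 exonic bases with Dennd1a on the opposite strand, whose median was 7.37 TPM.

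Podxl encodes podocalyxin, the main sialomucin of the foot process surface, whose charge keeps neighbouring processes apart. With DMSO the control mice had 5581 to 8991 TPM with a median of 7322. H77L mice had 2600 to 4073 TPM (median 3469) and C118F mice 1204 to 3754 TPM (median 2345). No knock-in mouse reached the lowest control, and the group means went from 7321 TPM to 3449 in H77L and 2535 in C118F. The log2 fold change was -1.08 ± 0.15 in H77L (adjusted p = 7.09e-05, limma) and -1.60 ± 0.24 in C118F (adjusted p = 0.000172). With bortezomib controls had 6540 to 9338 TPM (median 8093), H77L mice 3450 to 4569 TPM (median 4307) and the C118F mice 2682, 2979, 3540, 3572 and 3706 TPM. Again the groups did not overlap, and the log2 fold changes were -0.98 ± 0.12 and -1.31 ± 0.15 (adjusted p = 2.14e-05 and 1.60e-05).

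Ptpro encodes GLEPP1, a receptor tyrosine phosphatase on the foot process membrane. Control mice with DMSO had 600 to 1121 TPM with a median of 885. H77L mice had 340 to 469 TPM (median 371) and C118F mice 151 to 510 TPM (median 363). The groups did not overlap, and the log2 fold change was -1.15 ± 0.15 in H77L (adjusted p = 2.77e-05, limma) and -1.47 ± 0.26 in C118F (adjusted p = 0.000772). With bortezomib controls had 710 to 1405 TPM (median 1168), H77L mice 310 to 418 TPM (median 343) and the C118F mice 254, 334, 343, 366 and 431 TPM. Here the fall was larger than that of any other member, with log2 fold changes of -1.67 ± 0.14 and -1.72 ± 0.17 (adjusted p = 2.70e-07 and 4.81e-06).

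The 4 falls did not rest on the libraries that stood apart. Without C118F DMSO replicate 1, the log2 fold changes in C118F with DMSO were -1.64 for Magi2, -1.09 for Crb2, -1.41 for Podxl and -1.27 for Ptpro, with adjusted p from 3.53e-06 to 0.00150 (limma). Without control DMSO replicate 1 or 2, all 4 genes also passed in both lines, and without C118F bortezomib replicate 2 all 4 passed in the bortezomib comparison. Leaving out each mouse in turn, between 5 and 6 members were called in H77L with DMSO, 4 to 5 in C118F with DMSO, 4 to 5 in H77L with bortezomib and 4 in each refit of C118F with bortezomib.

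Nphs1 encodes nephrin, the transmembrane protein that forms much of the slit diaphragm itself. In controls with DMSO it had 131 to 246 TPM with a median of 210. H77L mice had 115 to 195 TPM (median 167) and C118F mice 113 to 169 TPM (median 157). Only 1 mouse of each line lay below all controls. The log2 fold change was -0.29 (95% interval -0.61 to 0.03, adjusted p = 0.129, limma) in H77L and -0.38 (-0.69 to -0.07, adjusted p = 0.0622) in C118F, and neither passed. These values turned on control DMSO replicate 6, the lowest control at 131 TPM. Without it the log2 fold change was -0.41 in H77L (adjusted p = 0.0187) and -0.50 in C118F (adjusted p = 0.00847), and both passed. With bortezomib controls ranged from 126 to 323 TPM (median 214), H77L mice from 170 to 247 TPM (median 195) and the C118F mice had 150, 156, 161, 176 and 186 TPM. All knock-in values lay within the range of the controls, with log2 fold changes of -0.06 (-0.45 to 0.33) and -0.31 (-0.72 to 0.10).

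Fat1 encodes a protocadherin with a very long extracellular part that reaches into the slit. Under DMSO it had 25.6 to 49.7 TPM in controls (median 39.7), 38.8 to 74.1 TPM in H77L mice (median 48.4) and 17.0 to 91.9 TPM in C118F mice (median 39.9). The C118F mice spread on both sides of the controls, with 2 below and 1 above all of them. The log2 fold change was 0.40 (0.01 to 0.78, adjusted p = 0.0845, limma) in H77L and -0.05 (-0.75 to 0.64, adjusted p = 0.920) in C118F, which turned to 0.12 without C118F DMSO replicate 1 (adjusted p = 0.793). Without control DMSO replicate 5 the H77L value was 0.47 and passed (adjusted p = 0.0464). With bortezomib the log2 fold changes were -0.37 (-0.88 to 0.14) in H77L and 0.15 (-0.45 to 0.76) in C118F, and neither passed.

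Cd2ap encodes an adaptor that binds nephrin and actin regulators. Control mice with DMSO had 65.4 to 89.2 TPM (median 74.4), H77L mice 82.7 to 102 TPM (median 95.4) and C118F mice 56.3 to 135 TPM (median 74.3). In H77L 4 of 6 mice were above all controls, and the log2 fold change of 0.30 ± 0.09 passed (adjusted p = 0.0152, limma). In C118F it was 0.11 (-0.29 to 0.51, adjusted p = 0.689), and 0.22 without replicate 1 (adjusted p = 0.368). The H77L call was lost with all 35 mice in 1 fit (adjusted p = 0.114) and when the mouse number was added to the fit (0.15, adjusted p = 0.314). With bortezomib the log2 fold changes were -0.01 in H77L and 0.21 in C118F, with intervals of -0.26 to 0.23 and -0.11 to 0.53.

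Plce1 encodes phospholipase C epsilon, a signalling enzyme of the developing glomerulus. Control mice with DMSO had 62.7 to 97.7 TPM (median 82.8), H77L mice 68.1 to 102 TPM (median 76.6) and C118F mice 34.1 to 113 TPM (median 69.2). The groups overlapped, with log2 fold changes of -0.04 (-0.30 to 0.21) in H77L and -0.38 (-0.92 to 0.15) in C118F (adjusted p = 0.791 and 0.269, limma). Without C118F DMSO replicate 1 the C118F value was -0.23 (adjusted p = 0.469). With bortezomib they were -0.31 (-0.63 to 0.01) and -0.17 (-0.55 to 0.21), and neither passed (adjusted p = 0.160 and 0.519). Without control bortezomib replicate 1 the H77L value was -0.41 and passed (adjusted p = 0.0344).

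Fat1, Cd2ap and Plce1 are the members with the most exonic bases, between 15837 and 17338. These lengths merge the exons of all annotated transcripts of a gene and are not those of 1 transcript. Within groups these members moved with other genes of many exonic bases. A long-gene index, the median deviation of 2352 other genes with more than 10000 exonic bases in each mouse, correlated within groups with Plce1 (r = 0.90), Fat1 (r = 0.89), Cd2ap (r = 0.85) and Ptpro (r = 0.83), and less with Magi2 (r = 0.68), Podxl (r = 0.69), Nphs1 (r = 0.45) and Crb2 (r = 0.35). These are descriptions over 35 mice, in which all genes of a mouse come from the same library. The index ranged from -0.37 to 0.29 in C118F and from -0.15 to 0.04 in controls with DMSO, and was between 0.01 and 0.10 in H77L. With the index as a covariate, chosen after its values were seen, Plce1 fell in C118F with DMSO (-0.45, adjusted p = 0.00426, limma) and in H77L and C118F with bortezomib (-0.36 and -0.41, adjusted p = 0.00951 and 0.0173). In the same fits Fat1 fell in H77L with bortezomib (-0.48, adjusted p = 0.00462), and Nphs1 fell in C118F with DMSO and with bortezomib (-0.40 and -0.50, adjusted p = 0.0310 and 0.0488). Cd2ap no longer passed in H77L with DMSO (0.23, adjusted p = 0.362), nor did Crb2 (-1.11, adjusted p = 0.0751). In that comparison 1258 of 10964 genes passed with the index, while 2452 rose and 2455 fell without it. In C118F with DMSO 4077 of 10899 genes passed with the index, while 1498 rose and 1810 fell without it. With bortezomib 2971 of 10805 passed in H77L with the index, while 1355 rose and 1190 fell without it. For C118F with bortezomib these counts were 2962 of 10916 with the index, and 1653 and 1349 without it. Magi2, Podxl and Ptpro passed in all 4 comparisons with the index. What sets the index was not tested.

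Trpc6 encodes a calcium-permeable channel that takes part in signalling at the slit diaphragm. Its reads could be recovered as whole numbers to within 0.003 of a read, taking the smallest value as 1 read, and there were between 0 and 42 per mouse with a median of 8. In control mice with DMSO it was at 0 in 5 of 6, and the sixth, replicate 6, had 18 reads, or 0.61 TPM. H77L mice with DMSO had 6 to 42 reads (0.18 to 1.48 TPM, median 0.79) and C118F mice 6 to 41 reads (0.23 to 1.62 TPM, median 0.48). Every knock-in mouse thus had reads where most controls had none, but the single control with reads lay within the range of both lines. A count of 0 allows up to 3 reads, which is 0.093 to 0.145 TPM in the 8 mice at 0 across all groups. In an exact permutation test over mice on log2(TPM + 1), two-sided and chosen after the values were seen, both lines were higher than the controls with DMSO (differences 0.70 and 0.54, each p = 0.00866, 0.0390 after adjustment over 9 tests). Without a filter on low values, limma gave an adjusted p = 0.0309 in H77L and 0.0841 in C118F. With bortezomib 3 of 6 controls were at 0, the H77L mice had 0.04 to 1.19 TPM, and the 5 C118F mice had 0.05, 0.16, 0.85, 0.90 and 2.42 TPM. The differences of 0.37 and 0.62 did not pass (exact permutation test, adjusted p = 0.234 and 0.130). The highest C118F value came from the library of lowest depth and stood for 18 reads.

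**Figure D3:**
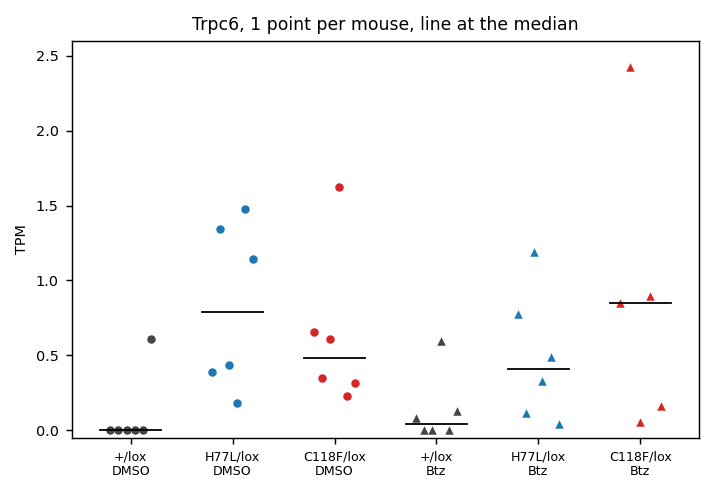
TPM of Trpc6 (vertical axis) in each mouse (points), by genotype and treatment (circles DMSO, triangles bortezomib), with a line at the group median. In controls with DMSO 5 of 6 mice are at 0 and 1 is at 0.61, while all H77L and C118F mice are above 0.

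The level of each member relative to Nphs1 in the same mouse shows whether the falls were shared with nephrin, without any scaling between mice. In 49 exact permutation tests over mice, two-sided, adjusted together and chosen after the values were seen, Magi2 fell relative to Nphs1 by 1.25 log2 units in H77L and by 1.46 in C118F with DMSO, and by 1.06 and 1.05 with bortezomib (adjusted p = 0.0133, 0.0133, 0.0133 and 0.0152). Podxl fell relative to Nphs1 by 0.79 and 1.22 with DMSO and by 0.92 and 1.00 with bortezomib (adjusted p from 0.0133 to 0.0152). Ptpro fell by 0.86 and 1.10 with DMSO and by 1.62 and 1.41 with bortezomib (adjusted p from 0.0133 to 0.0212). For Crb2 the fall relative to Nphs1 passed in C118F with DMSO and in both lines with bortezomib (adjusted p from 0.0312 to 0.0482), but not in H77L with DMSO (-0.74, adjusted p = 0.0530). Relative to Nphs1, Cd2ap was higher in H77L and C118F with DMSO by 0.59 and 0.49 (adjusted p = 0.0152 and 0.0482) and in C118F with bortezomib by 0.53 (adjusted p = 0.0447). Fat1 was higher relative to Nphs1 in H77L with DMSO by 0.70 (adjusted p = 0.0133). Cd2ap and Fat1 followed the long-gene index within groups more closely than Nphs1 did (r = 0.85 and 0.89 against 0.45). The part of the index in the ratios was not tested. Levels of Magi2, Podxl and Ptpro per level of Nphs1 were thus lower in both lines with either treatment, and the tests for Plce1 did not pass in any of the 4 comparisons.

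**Figure D4:**
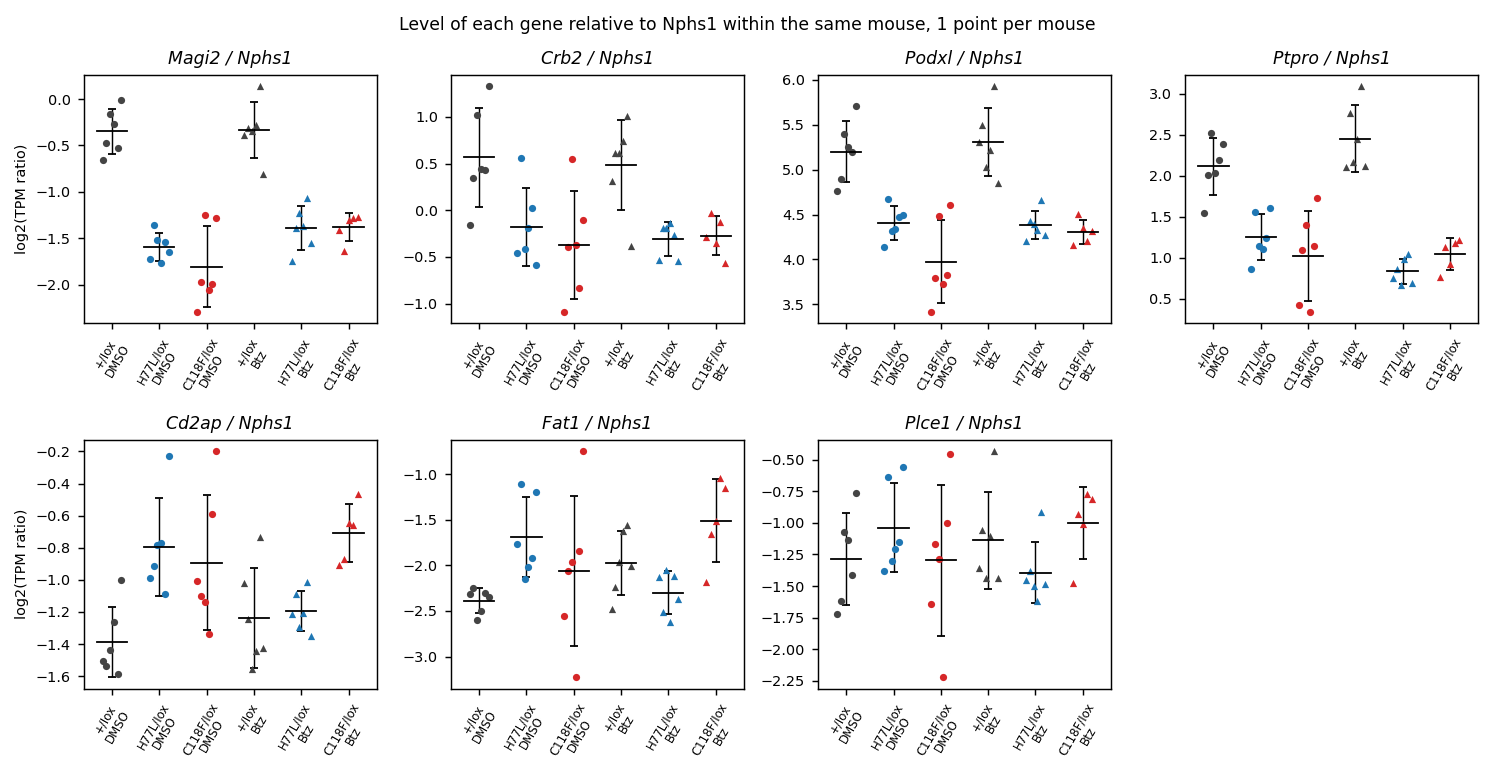
Log2 ratio of the TPM of 7 members to that of Nphs1 in the same mouse (vertical axes), by genotype and treatment, with 1 point per mouse and the group mean and SD as lines. Magi2 and Podxl ratios of the knock-in lines do not overlap with those of the matching controls in any of the 4 comparisons, whereas the Plce1 ratios overlap in all 4. The share of all genes whose ratios do not overlap was not counted.

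Bortezomib was compared with DMSO within each genotype to see whether the drug changed the members. No member passed in any genotype. In controls 0 of 8 members and 0% of all genes passed, with 1 member and 923 of 10659 genes at an unadjusted p under 0.05 (limma). In H77L 0 of 8 members passed, beside 1.16% of all genes, and 3 members and 2161 of 10813 genes had an unadjusted p under 0.05. In C118F 0 of 8 members and 0% of all genes passed, with 1 member and 634 of 10814 genes at an unadjusted p under 0.05. The member nearest to a call was Magi2 in H77L, where the 6 mice with bortezomib (65.0 to 91.0 TPM) all lay above the 6 with DMSO (36.7 to 62.1 TPM). Its log2 fold change was 0.49 (95% interval 0.21 to 0.77, adjusted p = 0.0757, limma). Magi2 was the 1 member of 8 without overlap there, and the share of all genes without overlap was not counted. In C118F Magi2 was 0.54 higher with bortezomib (0.05 to 1.04, adjusted p = 0.813), and in controls 0.07 (-0.21 to 0.35, adjusted p = 0.874).

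Podxl showed values of 0.27 (0.01 to 0.52) in H77L, 0.46 (-0.07 to 0.99) in C118F and 0.16 (-0.18 to 0.50) in controls, and Nphs1 values of 0.29 (0.03 to 0.55), 0.13 (-0.13 to 0.38) and 0.06 (-0.37 to 0.49). Ptpro was at 0.39 (0.01 to 0.78) in controls, -0.13 (-0.32 to 0.07) in H77L and 0.15 (-0.44 to 0.74) in C118F. The intervals of Crb2 were -0.42 to 0.37 in controls, -0.25 to 0.56 in H77L and -0.35 to 0.81 in C118F, so that a rise of the size of its fall with DMSO lay outside those of both knock-in lines. Fat1 ranged most between genotypes, with 0.46 in controls, -0.31 in H77L and 0.66 in C118F, and its interval in C118F was -0.14 to 1.47. Without C118F DMSO replicate 1 the values in C118F were 0.26 for Podxl, -0.05 for Ptpro, 0.00 for Crb2, 0.37 for Magi2 and 0.04 for Nphs1, and none passed. In the ratios to Nphs1, Cd2ap, Fat1 and Ptpro were lower with bortezomib than with DMSO in H77L, by 0.40, 0.61 and 0.42 log2 units (exact permutation tests, adjusted p = 0.0152, 0.0312 and 0.0354), and no ratio passed in controls or C118F. These members followed the long-gene index more closely than Nphs1 did. With the index as a covariate their own values in H77L were -0.05, -0.19 and -0.08 (limma, adjusted p = 0.759, 0.565 and 0.656). The part of the index in the ratios was not tested.

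**Figure D5:**
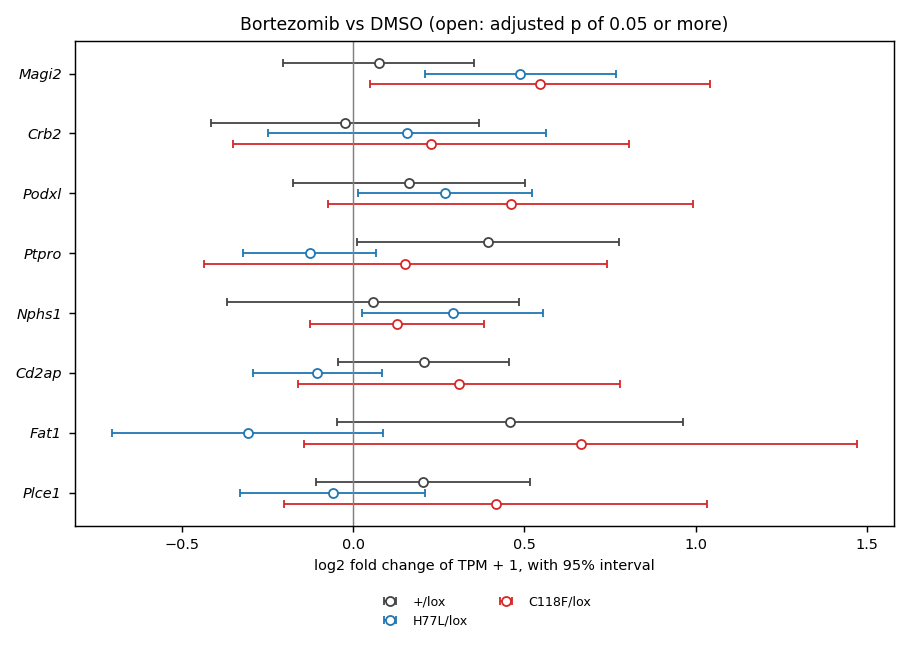
Log2 fold change of TPM + 1 between bortezomib and DMSO (horizontal axis) with its 95% interval for 8 members in controls, H77L and C118F (colours). All symbols are open because no adjusted p was under 0.05; Magi2 in H77L, at 0.49, had the lowest adjusted p.

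The response to bortezomib was also compared between genotypes, as an interaction. For H77L minus control 0 of 8 members and 0% of all genes passed, with 4 members and 2037 genes at an unadjusted p under 0.05 (limma). Those members were Ptpro (-0.52, adjusted p = 0.192), Fat1 (-0.77, adjusted p = 0.206), Magi2 (0.41, adjusted p = 0.253) and Cd2ap (-0.31, adjusted p = 0.263). For C118F minus control, 0 of 8 members and 0% of all genes passed, with 0 members and 560 genes at an unadjusted p under 0.05. For H77L minus C118F, 0 of 8 members and 0% of all genes passed, with 1 member, Fat1 (-0.97, adjusted p = 0.650), and 840 genes at an unadjusted p under 0.05. The responses of the members were thus not shown to differ between genotypes.

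The knock-in lines were set against each other in the same way. With DMSO 0 of 8 members and 0% of all genes passed for C118F against H77L, with 1 member and 416 genes at an unadjusted p under 0.05 (limma). All 8 members had a value below 0, beside a median of -0.04 over all genes, and the largest was Podxl with -0.52 (95% interval -1.02 to -0.02, adjusted p = 0.931). Without C118F DMSO replicate 1 these differences shrank, to -0.32 for Podxl, -0.12 for Magi2 (from -0.30), -0.12 for Ptpro (from -0.32), -0.06 for Crb2 (from -0.28) and -0.01 for Nphs1 (from -0.09). With bortezomib 0 of 8 members passed, beside 0.972% of all genes, and 4 members and 1558 of 10803 genes had an unadjusted p under 0.05. These were Podxl (-0.33, -0.59 to -0.07), Nphs1 (-0.25, -0.48 to -0.03), Crb2 (-0.21, -0.40 to -0.02) and Fat1 (0.52, 0.03 to 1.02), with adjusted p from 0.233 to 0.321. The intervals for Magi2 were -0.77 to 0.18 with DMSO and -0.50 to 0.02 with bortezomib.

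Mice of 1 group also differed from each other in a shared way. Within groups, over 35 mice, Magi2 correlated with Podxl (r = 0.88), Ptpro with Plce1 (r = 0.88), Podxl with Ptpro (r = 0.87) and Fat1 with Plce1 (r = 0.86), while Cd2ap and Crb2 had r = 0.05. C118F bortezomib replicate 1 was the lowest of its group for 7 of 8 members and replicate 5 the highest for 7. In the search for genes with the most similar profile over all 35 mice among 11306 genes, Magi2 and Podxl were near each other (r = 0.97). The gene nearest to Magi2 was Thsd7a (r = 0.98), to Crb2 Arhgap32 (r = 0.96), to Ptpro Sirpa (r = 0.96), to Fat1 Kmt2c (r = 0.92), to Plce1 Ptprd (r = 0.92) and to Cd2ap Ncor1 (r = 0.90). Ripor1 was among the nearest 3 of Magi2 and Podxl, Arvcf of Crb2 and Podxl, and Ptprd of Fat1 and Plce1. Nphs1 had no close partner, its nearest gene being Myo1d (r = 0.74). These values are descriptions. Mice share genotypes, and all values of a mouse share its depth and its long-gene index.

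Partners of the members were described from lists. Of 17 genes of slit diaphragm partners, 14 were tested in H77L and 13 in C118F with DMSO. In each line 4 fell, and 7 rose in H77L and 3 in C118F. Of all genes tested, 22.4% fell and 22.4% rose in H77L, and 16.6% fell and 13.7% rose in C118F. Dendrin (Ddn), which binds nephrin and Cd2ap, went from a median of 495 TPM in controls to 101 in H77L and 48.6 in C118F, and the actin-binding synaptopodin (Synpo) from 2409 to 631 and 501 TPM. In contrast Actn4, an actin crosslinker, went from 842 to 1879 and 1801 TPM, Dag1, the dystroglycan of the foot process sole, from 1677 to 3297 and 3387 TPM, and Iqgap1, a nephrin-binding scaffold, from 78.0 to 157 and 151 TPM. All 5 genes passed in both lines with DMSO (limma). Synpo and Ddn are also on the list of podocyte markers.

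Around Crb2, 12 of 13 polarity genes were tested, of which 4 fell and 1 rose in H77L and 3 fell and none rose in C118F with DMSO. The shares of all genes were 22.4% for falls and 22.4% for rises in H77L, and 16.6% and 13.7% in C118F. Pals1, the scaffold that binds Crumbs proteins, fell from a median of 268 TPM in controls to 93.9 in H77L and 83.5 in C118F (log2 fold change -1.46 and -1.56, adjusted p = 3.94e-09 and 2.34e-06, limma), and it fell with bortezomib as well (-1.42 and -1.45). Pard6a, a partner of atypical protein kinase C, fell from 20.3 to 11.8 and 11.1 TPM. Crb1, the relative of Crb2, had a median of 0 in controls. Around Podxl, 8 genes of anchors and relatives were listed. With DMSO 2 fell and 2 rose among 6 tested in H77L, and 1 fell and 1 rose among 7 in C118F. The shares of all genes are those given for the polarity genes. Rhpn1 fell from 894 to 98.3 and 59.9 TPM (-3.22 and -3.42), while moesin (Msn), a relative of ezrin that ties membrane proteins to actin, rose from 179 to 441 and 433 TPM. Ezrin (Ezr) and the NHERF adaptors were on the same list. With DMSO Ezr (0.34, adjusted p = 0.0253) and Nherf1 (-0.28, adjusted p = 0.0403, limma) passed in H77L but not in C118F, and Nherf2 passed in neither. With bortezomib Nherf1 fell in both lines (-0.24 and -0.36, adjusted p = 0.0239 and 0.0100), while Ezr and Nherf2 passed in neither.

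Of 26 relatives of the members, from the FAT, TRPC, MAGI, phospholipase C, receptor phosphatase and Crumbs families and the Cd2ap relative Sh3kbp1, 10 were tested in H77L and 9 in C118F with DMSO. There 4 rose and 1 fell in H77L, and 2 rose and none fell in C118F. Among all genes, 22.4% rose and 22.4% fell in H77L, and 13.7% rose and 16.6% fell in C118F. Magi3 rose from a median of 4.86 TPM to 15.9 in H77L and 15.3 in C118F (log2 fold change 1.43 and 1.23, adjusted p = 0.000299 and 0.00973, limma), the opposite direction to Magi2, while its level stayed below that of Magi2. Plcd1 rose from 9.63 to 16.1 and 17.1 TPM. With bortezomib both passed in C118F (1.20 for Magi3 and 0.85 for Plcd1, adjusted p = 0.000600 and 0.000406) but not in H77L (0.26 and 0.09, adjusted p = 0.278 and 0.731). Between the lines with bortezomib, C118F was higher by 0.76 for Plcd1 (adjusted p = 0.0451), while the 0.94 for Magi3 did not pass (adjusted p = 0.0580, limma). The summed level of all 26 relatives was a median of 109 TPM in controls, 146 in H77L and 135 in C118F with DMSO. No gene of these 4 lists passed the comparison of bortezomib with DMSO in controls or C118F, where 0% of all genes passed. In H77L 2 of 9 tested relatives fell, beside 1.16% of all genes that passed in either direction.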

How the data were processed

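RNA of sorted podocytes (EGFP-positive cells of the mT/mG reporter) was sequenced single-end after poly(A) capture with a SMART-Seq mRNA kit. The authors trimmed reads with Trim Galore 0.6.7, aligned them with STAR to GRCm39, assigned multimapping reads at random and counted genes with featureCounts 1.6.3. They deposited TPM values in 1 table of 33292 genes and 35 mice. The step from counts to TPM, the strand setting and the total reads are not given in the sources used here, so absolute depth is unknown; depth relative to the median mouse and the reads of Crb2 and Trpc6 were recovered from the steps of low values. Intervals and floors cover counting error only where they rest on reads.

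Symbols were matched through GENCODE M39 (GRCm39), which held 32776 of the 33292 identifiers. Groups follow the genotype and treatment in the titles. Replicate numbers are names in order of accession and pair no mice. TPM was tested with limma 3.58.1 (R 4.3.3; lmFit, eBayes with trend) as log2(TPM + 1), after dropping genes that did not exceed 1 TPM in all mice of one or both groups, with only the compared groups in the fit. Small fold changes of low genes are understated on this scale. Single values and ratios were tested with exact permutation tests over mice (scipy 1.17.1). Scripts were tested on simulated data. Alternatives were another pseudocount (0.1 or 5), filter, scaling, trend, weights, a shared fit, a covariate and leaving out each mouse. All members are named; list genes are named that passed in the same direction in both lines with DMSO, at most 3 per direction and list; the 3 genes most like each member were found by Pearson r. Members and lists were chosen with earlier results of these data known. The sex of the mice was not in the labels, and the study's supplementary tables and protein sequences were not used here. A gene among the listed partners and markers is not reported here by name.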

Additional observations from a re-analysis of the deposited data

Results flagged for a closer look

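A mouse far from the rest of its group was found in 4 of the 54 sets of a gene in a group, or 7.41%, where chance flags about 1 in 20. Nphs1 in C118F with DMSO had 1 mouse at 113 TPM, and the next lowest was at 154 TPM. Plce1 in H77L with DMSO had 1 mouse at 102 TPM above the next at 79.2 TPM. Trpc6 had 1 control mouse with DMSO at 0.61 TPM, where the other 5 were at 0, and 1 control mouse with bortezomib at 0.60 TPM, where the next was at 0.13 TPM.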

How the results depend on the processing

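Of 12 counts of members called, each under its alternatives, the counts that moved by over 1.5 times were those of the 4 comparisons with controls. In H77L with DMSO 5 members were called, 3 with the mouse number as a covariate, 3 with the long-gene index and 0 at the stricter cutoffs, and in the other 3 comparisons 4 were called and 0 at the stricter cutoffs. Over all genes in that H77L comparison, 2873 of 10964 passed with the mouse number and 1258 with the index. As reported, 2452 rose and 2455 fell. Magi2, Podxl and Ptpro passed in every alternative fit at an adjusted p under 0.05, with Magi2 between -1.93 and -1.04 and Ptpro between -2.01 and -1.01 in log2 fold change, and so did Crb2 except in H77L with DMSO, where it passed in 20 of 22. No called value changed sign, while uncalled values did in 67 fits. The total of 2655 member fits also counts called values and Trpc6, which had no main value. With the mouse number as a covariate Plce1 fell in C118F with DMSO (-0.75, adjusted p = 0.0223, limma) and in H77L with bortezomib (-0.49, adjusted p = 0.0149), and Fat1 in the latter (-0.71, adjusted p = 0.0177). In these fits 2463 of 10899 and 2611 of 10805 genes passed, and the cause was not tested. With DMSO the numbers ran from 46302 to 47155 in controls, 46621 to 48975 in H77L and 46301 to 50093 in C118F. Mouse number and genotype thus cannot be fully told apart. No paired analysis was possible because the mice have no shared numbers in the labels. Of the members whose reads could be recovered, depth limits Trpc6, with 0 to 42 reads a mouse, and not Crb2, with at least 1509.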
